A study of Mus musculus with 4 samples.

Results

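Of 27091 cell barcodes in 4 single-cell libraries of mouse liver, 286 held marker RNA of both Kupffer cells and hepatic stellate cells. A limit on endothelial RNA applied to them. They were chosen by unique molecular identifiers (UMIs, one per captured transcript) among the 25861 barcodes with at least 200 genes and at most 25% mitochondrial UMIs. A joint barcode had at least 5 UMIs of Clec4f, at least 15 of Clec4f, Vsig4 and Cd5l summed, at least 15 of Reln, Colec11 and Dcn summed, and under 0.5% of its UMIs from Kdr, Ptprb, Stab2, Oit3, Ehd3 and Egfl7. The levels of these 12 genes therefore describe how the barcodes were chosen and are given without a test. Joint barcodes numbered 72 and 14 in the 2 CCl4 libraries and 102 and 98 in the 2 corn oil libraries. Of these, 30 held mesothelial RNA and are not called stellate below. The CCl4 mice received carbon tetrachloride, a hepatotoxin used to cause liver fibrosis, diluted 1:9 in corn oil and injected into the peritoneum 2 times a week for 5 weeks, at a dose of 10 µl for each g of weight. The corn oil mice received the oil alone on that schedule. All were wild-type males, 8 to 10 weeks of age when injected and killed 48 hours after their last injection, and the labels name no strain. Livers were digested with pronase and collagenase, hepatocytes were spun out at 50 g, dead cells and erythrocytes were removed on a density gradient, and about 10000 viable cells were loaded per BD Rhapsody library.

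Kupffer cells are the resident macrophages of the liver and sit inside the sinusoids, where they take up particles, bacteria and ageing erythrocytes. Stellate cells lie just outside the sinusoidal endothelium, in the space of Disse; at rest they store vitamin A, and in injury they turn into contractile, matrix-producing cells. The 2 cell types are close neighbours across a thin endothelial layer and exchange growth factors and chemokines.

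Each reference class was cut from the same libraries with the same markers. Single Kupffer cells met the Kupffer criterion with at most 2 UMIs of Reln, Colec11 and Dcn, and numbered 309 and 281 in the CCl4 libraries and 228 and 229 in the corn oil libraries. Single stellate cells met the stellate criterion with at most 2 UMIs of Clec4f, Vsig4 and Cd5l, and numbered 556 and 209 in the CCl4 libraries and 167 and 158 in the corn oil libraries. Both classes also had under 0.5% endothelial marker UMIs. Library depth was close, at 55529871 and 45408857 UMIs in the CCl4 libraries and 50422053 and 51752732 in the corn oil libraries, and the labels place all 4 in 1 batch. Between 42 and 70 cell indices were shared by each pair of libraries; 6 of those 312 shared indices belonged to a joint barcode, and none was joint in both libraries. The labels describe each library as 1 mouse, so a group is 2 mice and p-values cover only the spread between them; the CCl4 2 library rests on 14 joint barcodes, 1 of which gave 11.4% of its joint UMIs.

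Both marker sets were present well above their thresholds. Per joint barcode, UMIs of Clec4f, a C-type lectin that defines Kupffer cells, had medians of 33.5 and 25.5 in the CCl4 libraries and 76 and 51 in the corn oil libraries, where single Kupffer cells had 28 and 34 in the CCl4 libraries and 57.5 and 33 in the corn oil libraries. For Cd5l, a secreted protein of tissue macrophages, the joint medians were 87.5 and 45 in the CCl4 libraries and 57.5 and 47.5 in the corn oil libraries, with 60 and 42 in the CCl4 libraries and 39.5 and 24 in the corn oil libraries in single Kupffer cells. The Kupffer side of a joint barcode thus held about as many marker UMIs as a single Kupffer cell, or more, in every library except CCl4 2, where Clec4f was lower. Dcn, the small matrix proteoglycan decorin, was found in all 286 joint barcodes, with median UMIs of 89 and 44.5 in the CCl4 libraries and 40 and 45.5 in the corn oil libraries, against 72 and 62 in the CCl4 libraries and 70 and 67 in the corn oil libraries in single stellate cells. Reln, the secreted glycoprotein reelin that marks quiescent stellate cells, had joint medians of 11 and 5.5 in the CCl4 libraries and 4.5 and 5 in the corn oil libraries, against 10 and 5 in the CCl4 libraries and 16 and 18 in the corn oil libraries in single stellate cells. The stellate side matched or passed that of a single cell in the CCl4 1 library and was smaller for all 3 markers in both corn oil libraries.

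**Figure D1:**
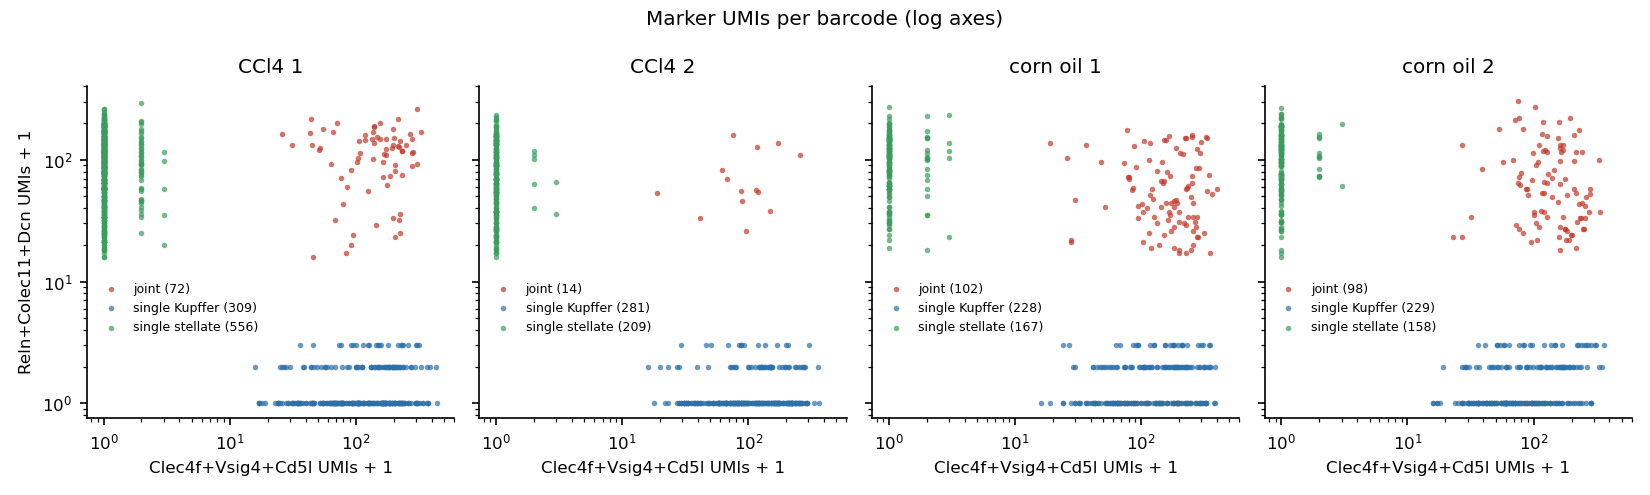
UMIs of the 3 Kupffer markers (x axis, log scale, plus 1) and of the 3 stellate markers (y axis, log scale, plus 1) in each barcode, 1 panel per library; red points are joint barcodes, blue single Kupffer cells and green single stellate cells. The 72, 14, 102 and 98 joint barcodes fill the upper right, apart from both single classes by the way the classes were defined.

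All 3 stellate markers were found together in 64 of 72 and 11 of 14 joint barcodes of the CCl4 libraries and in 77 of 102 and 76 of 98 of the corn oil libraries, whose median depths were 28990.5 and 21522 UMIs in the CCl4 libraries and 19711 and 17802 UMIs in the corn oil libraries. This describes the choice of the barcodes. Single Kupffer cells were limited by definition to 2 UMIs of these markers, so they give no measure of stellate background.

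Transcription factors outside the rule were read beside the label, as a description. At least 1 of Spic and Nr1h3, which maintain Kupffer cell identity, was detected together with at least 1 of Lhx2, Hand2 and Tcf21, factors of the stellate and mesenchymal lineage, in 86.1% and 71.4% of joint barcodes in the CCl4 libraries and 80.4% and 79.6% in the corn oil libraries. The same pairing was seen in 3.88%, 2.85%, 9.21% and 6.11% of single Kupffer cells in those libraries, and in 8.81%, 6.22%, 4.19% and 5.06% of single stellate cells. In every library the share in joint barcodes lay far above both single classes. The single classes were limited by definition to 2 UMIs of the other cell's markers, and joint barcodes were also the deepest. This contrast therefore follows from how the classes were chosen and does not test the label. Spic was detected in 83.3% and 64.3% of joint barcodes in CCl4 and 79.4% and 84.7% in corn oil, beside 72.2%, 75.8%, 63.2% and 64.6% of single Kupffer cells and at most 1.8% of single stellate cells. Tcf21 was detected in 62.5% and 35.7% of joint barcodes in CCl4 and 45.1% and 50% in corn oil, beside 62.8%, 61.7%, 61.1% and 70.3% of single stellate cells and at most 4.8% of single Kupffer cells. By summed level, Hand2 had 117, 101, 152 and 192 CPM (counts per 1000000 UMIs of the pooled barcodes) in the joint sums of CCl4 1, CCl4 2, corn oil 1 and corn oil 2, against 409, 386, 667 and 1212 CPM in single stellate sums and 1.68, 1.36, 3.64 and 3.82 CPM in single Kupffer sums. Spi1, the macrophage factor PU.1, had 238, 239, 299 and 327 CPM in the joint sums, against 298, 354, 379.5 and 488 CPM in single Kupffer sums and 28.6, 33, 32.3 and 12 CPM in single stellate sums. By summed level, Hand2 and Spi1 thus lay between the 2 single classes in all 4 libraries. Id3, a factor found in both classes, did not: it had 761, 487, 583 and 705 CPM in the joint sums, against 549, 363, 536 and 606 CPM in single Kupffer sums and 728, 619, 415 and 428 CPM in single stellate sums, and was above both in 3 of 4 libraries.

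One subset went against the stellate name of the label. Mesothelial markers (Msln, Upk3b, Upk1b, Gpm6a, Lrrn4), of the cells that cover the liver surface, reached 10 UMIs in 4 and 1 joint barcodes of the CCl4 libraries and in 12 and 13 of the corn oil libraries. Portal fibroblast markers (Thy1, Cd34, Entpd2, Clec3b, Dpt, Gsn, Mfap4, Pi16) reached 10 UMIs in 1 and 1 joint barcodes of the CCl4 libraries and in 10 and 10 of the corn oil libraries. Together these were 36 of 286 barcodes. In the 30 with mesothelial RNA the median Reln count was 1 and 0 in the CCl4 libraries and 0 and 0 in the corn oil libraries, the medians of Colec11 and of Lrat, the vitamin A esterifying enzyme of stellate cells, were 0 in every library, and Dcn had medians of 78.5 and 32 in the CCl4 libraries and 57.5 and 52 in the corn oil libraries. These 30 met the rule mainly through Dcn, which other mesenchymal cells also express, and are therefore not called stellate here. Results that rest on them are given with and without them; leaving them out was chosen after seeing the data, and 250 joint barcodes then remained.

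Joint barcodes made up 1.17% (95% exact binomial interval 0.918 to 1.47) and 0.249% (0.136 to 0.418) of kept barcodes in the CCl4 libraries. In the corn oil libraries they made up 1.49% (1.22 to 1.8) and 1.35% (1.1 to 1.65). Both CCl4 libraries were below both corn oil libraries, CCl4 1 by little and CCl4 2 by much. The means were 0.711 ± 0.653% in CCl4 and 1.42 ± 0.0964% in corn oil (SD, n = 2 mice each), an exact two-sided permutation p of 0.333, which is the smallest that 2 mice against 2 allow. These intervals and those below cover counting error only.

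Against the barcodes that met each criterion under the endothelial limit, the difference was wider. Of those that met the stellate criterion, 11.1% and 6.09% were joint in the CCl4 libraries and 37.1% and 37.1% in the corn oil libraries. Of those that met the Kupffer criterion, 17.4% and 4.56% were joint in CCl4 and 26.6% and 25.8% in corn oil. The groups did not overlap on either denominator. Barcodes above the limit are in neither denominator. Barcodes with stellate and endothelial RNA had median endothelial shares of 0.422% and 0.480% in CCl4 and 1.06% and 1.33% in corn oil. Most of those in corn oil were thus left out. The shares are therefore not of all stellate cells, and the part of the limit in the difference was not tested.

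A pair rate put the joint count in relation to both single classes: joint barcodes times kept barcodes, divided by the product of the single Kupffer and single stellate numbers. It was 2.57 (95% exact Poisson interval 2.01 to 3.24) and 1.34 (0.733 to 2.25) in the CCl4 libraries, and 18.4 (15 to 22.3) and 19.6 (15.9 to 23.9) in the corn oil libraries. The corn oil mean was 9.71 times the CCl4 mean, at 1.96 ± 0.872 in CCl4 and 18.99 ± 0.900 in corn oil (SD, n = 2 mice each; exact permutation p = 0.333, the smallest possible). Other pairs of cell types differed less between the groups, but were counted under other limits. They held at most 2 UMIs of each remaining set among the Kupffer, stellate and endothelial markers, with no percent limit. The Kupffer and stellate pair had only the 0.5% endothelial limit. Its median endothelial marker UMIs were 46.5 and 32.5 in CCl4 and 31 and 16 in corn oil. Kupffer with endothelial RNA had rates of 1.01 and 0.582 in CCl4 and 0.955 and 1.63 in corn oil, and the groups overlapped. Stellate with endothelial RNA had rates of 1.21 and 0.773 in CCl4 and 2.41 and 2.42 in corn oil. No barcode joined Kupffer with T cell RNA, which allows pair rates of up to 1.81 and 0.896 in CCl4 and 0.601 and 0.530 in corn oil from a count of 3. The Kupffer and stellate pair had the highest rate of the observed pairs in all 4 libraries, under these unlike limits.

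**Figure D2:**
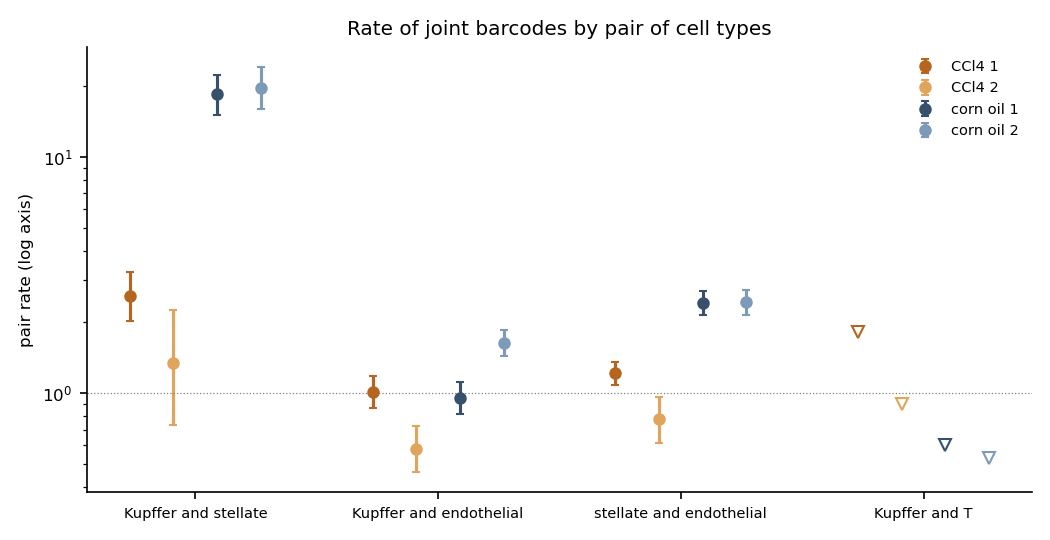
Pair rate (log axis, no unit) of 4 pairs of cell types in the 4 libraries; points are the libraries, bars 95% exact Poisson intervals of the joint count, and open triangles the limit that a count of 0 allows. The corn oil libraries stand at 18.4 and 19.6 for Kupffer and stellate RNA, the CCl4 libraries at 2.57 and 1.34.

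Under the endothelial limit, single stellate cells made up 9.05% and 3.72% of kept barcodes in CCl4 livers and 2.44% and 2.18% in corn oil livers. This enters the pair rate directly, and the limit shapes it. The stellate with endothelial barcodes numbered 336 and 80 in CCl4 and 300 and 270 in corn oil. Their median endothelial share was 0.422% and 0.480% in CCl4 and 1.06% and 1.33% in corn oil. Most of those in corn oil were thus outside the single stellate class. The thresholds count UMIs, so depth enters too. Barcodes with at least 5000 UMIs were thinned to that depth, chosen after seeing the data. The pair rates were then 1.48 and 0.685 in CCl4 and 10.9 and 11.8 in corn oil, without overlap of the groups. Shallower barcodes were left out. Among them were 97 and 27 single stellate cells in CCl4 and 88 and 93 in corn oil, beside 0 and 0 joint barcodes in CCl4 and 1 and 1 in corn oil. The single classes were thus reduced unevenly, and the part of depth in the pair rate was not tested. Of the 6 genes of the endothelial limit, Ehd3 had 672, 373, 871 and 775 CPM in joint sums, against 187, 118, 342 and 302 CPM in single Kupffer sums and 1181, 574, 1549 and 1681 CPM in single stellate sums. Stellate barcodes themselves thus held UMIs that count toward that limit. The limit bore mostly on corn oil livers. It removed 3 and 0 barcodes with both marker sets from the CCl4 libraries and 73 and 123 from the corn oil libraries; without it the counts were 75 and 14 in CCl4 and 175 and 221 in corn oil. Near the thresholds, 14 joint barcodes had 15 to 19 stellate marker UMIs while 28 barcodes that met all else had 10 to 14; 52 had 0.4 to 0.5% endothelial UMIs while 40 had 0.5 to 0.6%. For the Kupffer sum 2 stood on either side of 15 UMIs.

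Joint barcodes carried more RNA than either single class. Their median UMI count was 28990.5 and 21522 in the CCl4 libraries and 19711 and 17802 in the corn oil libraries. Single Kupffer cells had medians of 16404 and 15947 in the CCl4 libraries and 10612 and 7441 in the corn oil libraries, and single stellate cells 8924 and 9087 in the CCl4 libraries and 4771 and 4408 in the corn oil libraries. Divided by the sum of the 2 single medians, this came to 1.14 and 0.86 in CCl4 and 1.28 and 1.5 in corn oil. The median joint barcode thus held about the RNA of both cells added up in the CCl4 libraries and more than that in the corn oil libraries, and 49 of 72, 4 of 14, 70 of 102 and 81 of 98 exceeded the sum. Because thresholds on UMIs favour deep barcodes, this is a description. Mitochondrial UMIs had joint medians of 7.87% and 8.52% in CCl4 and 9.61% and 13.3% in corn oil, beside 7.2%, 8.14%, 9.03% and 13.8% in single Kupffer cells of the same libraries.

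**Figure D3:**
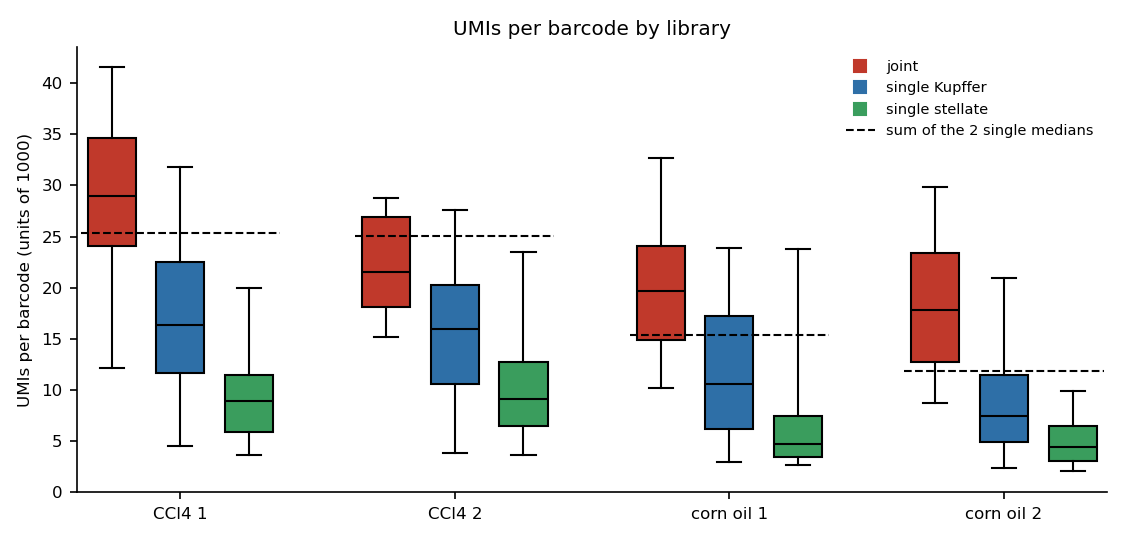
UMIs per barcode in units of 1000 (linear axis from 0) in joint barcodes, single Kupffer cells and single stellate cells of each library; boxes span the quartiles with the median, whiskers the 5th to 95th percentiles, and dashed lines the sum of the 2 single medians. The joint median is above the dashed line in 3 libraries and below it in CCl4 2, at 21522 against 25034 UMIs.

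Joint barcodes also held more different genes than single cells of the same depth. With every barcode thinned to 5000 UMIs, the median number of genes was 2268 and 2236 in joint barcodes of the CCl4 libraries and 2166 and 2084 in those of the corn oil libraries. Single stellate cells had 2157, 2140, 2097 and 1982 genes in CCl4 1, CCl4 2, corn oil 1 and corn oil 2, and single Kupffer cells 2128, 2140, 2063 and 1958. Joint barcodes exceeded the higher single median by 111.5, 96, 69 and 102 genes, in 4 of 4 mice (exact two-sided sign-flip permutation p = 0.125, the smallest that 4 mice allow). Shallower barcodes were left out: 27 to 97 single stellate cells, 23 to 60 single Kupffer cells and at most 1 joint barcode per library. At 8000 UMIs, where 21 single stellate cells were left in corn oil 2, the differences were 181.5, 159, 13.5 and -51.5 genes, so the excess was not seen in corn oil 2 at that depth.

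The mixing ratio within a joint barcode was estimated from markers that the rule did not use. A Kupffer equivalent is the UMI sum of 25 further Kupffer genes in a barcode divided by its mean in single Kupffer cells of that library, and a stellate equivalent is the same with 25 further stellate genes. Median Kupffer equivalents were 1.16 and 0.871 in the CCl4 libraries and 1.28 and 1.46 in the corn oil libraries, close to or above 1 cell. Median stellate equivalents were 0.884 and 0.359 in the CCl4 libraries and 0.288 and 0.348 in the corn oil libraries. Among these 4 libraries only the CCl4 1 library came near 1 stellate cell per joint barcode, and the medians of the other 3 libraries were between 0.288 and 0.359. The unit is a mean, and medians of single cells lay below it. Single stellate cells had 0.957 and 0.943 stellate equivalents in CCl4 and 0.742 and 0.894 in corn oil. Single Kupffer cells had 0.974 and 0.993 Kupffer equivalents in CCl4 and 0.888 and 0.810 in corn oil.

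Stellate equivalents varied widely among joint barcodes, 0.0567 to 2.85 in corn oil 2. Under 0.5 stellate equivalents were found in 22.2% and 64.3% of joint barcodes of the CCl4 libraries and in 64.7% and 60.2% of the corn oil libraries. At least 0.5 of both cells was present in 51 of 72 and 5 of 14 barcodes in CCl4, and in 33 of 102 and 38 of 98 in corn oil. More than 1.5 Kupffer equivalents were found in 19 and 2 barcodes of the CCl4 libraries and in 35 and 45 of the corn oil libraries. Kupffer RNA made up a median of 72.4% and 72.1% of the RNA assigned to either cell in CCl4 and 85.8% and 87% in corn oil. The groups did not overlap on this share (exact permutation p = 0.333, the smallest possible with 2 mice each). Within a library the 2 equivalents had Spearman correlations of 0.159, 0.319, 0.00291 and -0.0245 over 72, 14, 102 and 98 barcodes of shared depth, given as a description. A stellate equivalent under 1 can mean part of a cell's RNA or a whole cell with less RNA, and these cannot be told apart here.

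**Figure D4:**
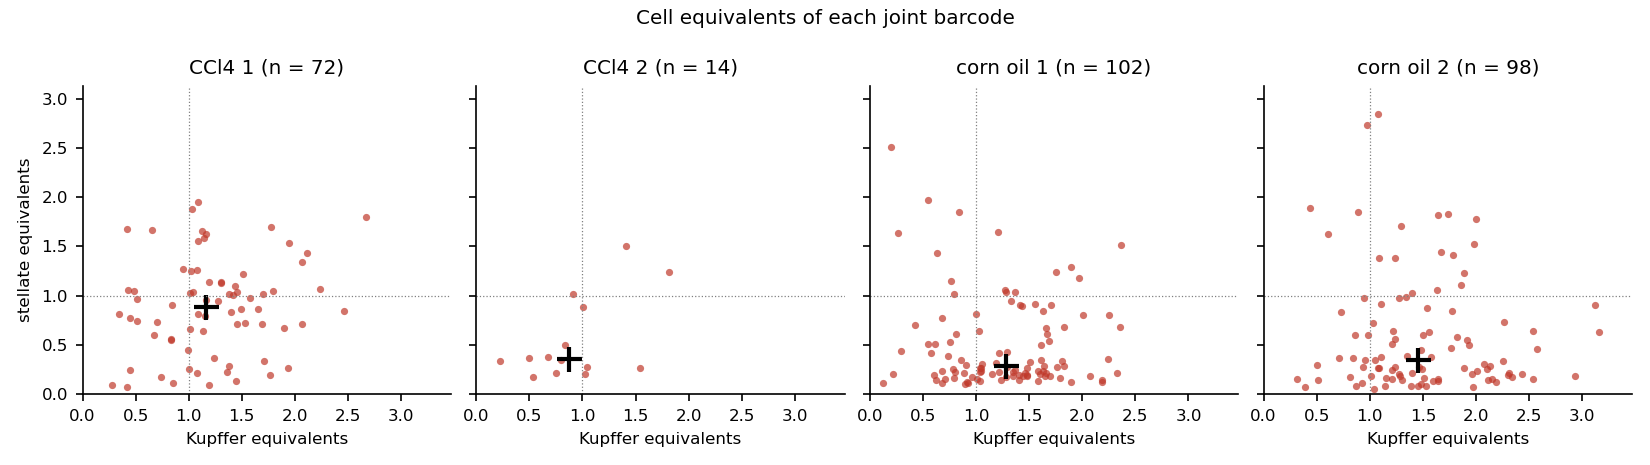
Stellate equivalents (y axis) against Kupffer equivalents (x axis) of each joint barcode, 1 panel per library, in units of the mean single cell of that library; black crosses mark the medians and dotted lines 1 cell. The crosses lie at 0.884 stellate equivalents in CCl4 1 and between 0.288 and 0.359 in the other libraries.

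Gene expression of joint barcodes was set against the sum of 1 mean single Kupffer cell and 1 mean single stellate cell of the same library, with the mouse as a block. Of 15 endothelial genes 12 were higher in joint barcodes than in the sum, as were 8 of 22 immediate early and stress genes, and 14 of 18 contractile and activation genes of stellate cells were lower. The limit on endothelial RNA in joint and single classes bears on the endothelial count, and its part was not tested. Of 11101 genes tested with edgeR's quasi-likelihood test, 547 (4.93%) passed a Benjamini-Hochberg adjusted p under 0.05, 178 (1.60%) higher and 369 (3.32%) lower in joint barcodes. The adjusted p-values below are from that test, over all genes tested, and rest on 4 mice. Because joint barcodes held a median of less than 1 stellate equivalent, the same test was run against a sum weighted by each library's mean Kupffer and stellate equivalents. It called 155 of 11114 genes (1.39%), 100 higher (0.900%) and 55 lower (0.495%), and 121 were called in both.

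The 2 identity lists follow the rule and the mix, so their counts are a description. Of 25 Kupffer genes outside the rule, 5 were higher and 0 lower than in the plain sum, with a median log2 difference of 0.22, where all genes tested had a median of 0.00497. Of 25 stellate genes outside the rule, 0 were higher and 11 lower, with a median of -0.60. Against the weighted sum the medians were -0.07 and 0.10, and 4 stellate genes (Pdgfra, Col3a1, Col1a1 and Col1a2) were lower while 3 (Ecm1, Angptl6 and Steap4) were higher. The weights were set from the UMI sums of these same 2 lists, which holds each list near 0 as a whole. Lower and higher members are thus relative to the rest of their list, and the p-values do not allow for this. Col1a1 (chr11:94936224-94953042, GRCm38), a chain of type I collagen, had 348, 291, 263 and 53.3 CPM in joint barcodes of CCl4 1, CCl4 2, corn oil 1 and corn oil 2, against 945, 1351, 711 and 199.7 CPM in the weighted sums. It was lower in 4 of 4 libraries, by a log2 difference of -1.65 ± 0.11 SE, edgeR adjusted p = 1.36e-05. Col1a2, the other chain of type I collagen, had 522, 556, 546 and 201 CPM in joint barcodes, against 1016, 1424, 900.1 and 413 CPM in the weighted sums, also lower in 4 of 4 libraries. Col1a2's log2 difference was -0.97 ± 0.08 SE, edgeR adjusted p = 9.6e-05. Bgn, the proteoglycan biglycan, had 769.6, 677, 568 and 639.7 CPM in joint barcodes, against 913, 948, 1194 and 1378 CPM in the plain sums, a log2 difference of -0.69 ± 0.12 SE, edgeR adjusted p = 0.013; against the weighted sum it did not pass, at -0.07 ± 0.06 SE, edgeR adjusted p = 0.724.

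Of 18 genes of activated, contractile stellate cells tested, 14 were lower and 0 higher than in the plain sum (median log2 difference -1.01), and 4 were lower than in the weighted sum: Acta2, Lox, Ch25h and Col12a1 (median -0.46). Acta2, smooth muscle actin and the usual marker of stellate activation, had 131, 55.6, 6.9 and 2.81 CPM in joint barcodes, against 195, 164, 22.2 and 4.5 CPM in the weighted sums. Joint barcodes were lower in 4 of 4 libraries (log2 difference -0.87 ± 0.17 SE, edgeR adjusted p = 0.0252). Lox, which cross-links collagen, had 16.4, 3.27, 5.42 and 0.561 CPM in joint barcodes, against 52.9, 46, 31.7 and 2.63 CPM. Lox's log2 difference was -2.05 ± 0.23 SE, edgeR adjusted p = 0.000519. Col15a1, a collagen of portal fibroblasts and basement membranes, had 6.28, 6.54, 5.92 and 1.68 CPM in joint barcodes, against 51.3, 59.8, 17.4 and 7.51 CPM. Col15a1's log2 difference was -2.48 ± 0.26 SE, edgeR adjusted p = 0.000454. Mfap4, Ncam1 and Svep1 were also among the 8 largest decreases against the plain sum, by log2 differences of -2.91, -2.81 and -2.75. Of 7 portal fibroblast markers tested, 4 were lower than in the plain sum and 3 than in the weighted sum, and 0 were higher in either. Single stellate cells held more barcodes with portal fibroblast or mesothelial RNA, 114 of 556 and 74 of 209 in CCl4 and 37 of 167 and 32 of 158 in corn oil, than joint barcodes, with 4 of 72, 2 of 14, 16 of 102 and 14 of 98. With those barcodes left out on both sides, Col1a1 differed from the plain sum by -1.75 ± 0.29 SE, edgeR adjusted p = 0.00649. Acta2 differed from it by -1.40 ± 0.23 SE, edgeR adjusted p = 0.00716. The plain sum does not take up the smaller stellate part of joint barcodes, and the weighted sum was not tested without those barcodes.

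Most sinusoidal endothelial genes tested were higher in joint barcodes than in the sum. The rule's endothelial limit also cut both single classes. It is a percent of UMIs, so it left room for fewer endothelial UMIs in the shallower single cells. Median endothelial marker UMIs in CCl4 1, CCl4 2, corn oil 1 and corn oil 2 were 46.5, 32.5, 31 and 16 in joint barcodes. Single stellate cells had 8, 3, 11 and 8, and single Kupffer cells 3, 3, 4 and 3. The part of the limit in the differences below was not tested. Of 15 endothelial genes outside the rule that were tested, 12 were higher and 0 lower than in the plain sum (median log2 difference 0.83), and 8 and 0 against the weighted sum (median 0.72). Clec4g, a sinusoidal endothelial lectin, had 447, 353, 463 and 414 CPM in joint barcodes, against 292, 133, 199.7 and 157 CPM in the sums, higher in 4 of 4 libraries. Clec4g's log2 difference was 1.17 ± 0.13 SE, edgeR adjusted p = 0.000826. Dnase1l3, a DNase secreted by sinusoidal endothelium and macrophages, had 432, 412, 835 and 704 CPM in joint barcodes, against 326, 202, 358 and 279 CPM, also higher in 4 of 4. Dnase1l3's log2 difference was 1.04 ± 0.14 SE, edgeR adjusted p = 0.00226. Aqp1, a water channel, and Lyve1, a hyaluronan receptor, differed by 0.91 ± 0.16 SE, edgeR adjusted p = 0.0125, and by 0.78 ± 0.17 SE, edgeR adjusted p = 0.0259. The largest increases of all genes included further genes known from endothelium: Cd300lg (1.36), Cyp4b1 (1.19) and Gpihbp1 (1.17), as well as the receptor gene Kit (1.30), the lysine-degrading enzyme gene Aass (1.19) and the transcription regulator gene Id4 (1.17), on the log2 scale.

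Counted per barcode, the endothelial markers outside the rule had a median of 100 and 83 UMIs in joint barcodes of the CCl4 libraries and 43.5 and 27 in those of the corn oil libraries. Adding the medians of single Kupffer and single stellate cells gave 32 and 16 UMIs in CCl4 and 20 and 19 in corn oil. At least 10 such UMIs were found in 93.1%, 85.7%, 91.2% and 90.8% of joint barcodes of CCl4 1, CCl4 2, corn oil 1 and corn oil 2, against 56.3%, 45.9%, 51.8% and 33.2% of single Kupffer cells and 69.2%, 48.8%, 53.3% and 63.3% of single stellate cells. The share was above both single classes in every library, under a fixed number of UMIs and in the deepest class. All of these classes were cut by an endothelial limit set in percent of UMIs. Markers of T and NK cells, B cells, plasmacytoid dendritic cells, neutrophils, platelets and erythroid cells had a median of 0 UMIs in joint barcodes of every library, as did cholangiocyte and mesothelial markers. Conventional dendritic cell, portal fibroblast and smooth muscle markers had medians of at most 2. Monocyte markers had medians of 15.5 and 7.5 UMIs in joint barcodes of the CCl4 libraries and 6 and 5 in those of the corn oil libraries, where the 2 single medians added up to 9.5 and 10 in CCl4 and 3 and 3 in corn oil. Hepatocyte markers had joint medians of 7 and 11.5 UMIs in CCl4 and 7 and 8.5 in corn oil, where the single medians added up to 6 and 16 in CCl4 and 7 and 6 in corn oil. How endothelial RNA came into these barcodes was not tested.

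Cxcl10 (chr5:92346638-92348889), a chemokine induced by interferon and inflammatory stimuli, was among the largest increases. It had 395, 317, 168 and 203 CPM in joint barcodes of CCl4 1, CCl4 2, corn oil 1 and corn oil 2, against 241, 90.7, 84.8 and 75.9 CPM in the sums, higher in 4 of 4 libraries. The log2 difference was 1.20 ± 0.14 SE, edgeR adjusted p = 0.00148, and 1.16 ± 0.14 SE, edgeR adjusted p = 0.000668 against the weighted sum. Of 15 listed genes of the interferon response, which do not include Cxcl10, 0 passed in edgeR, with a median log2 difference of 0.23. Cxcl2, a neutrophil chemokine, had 700.0, 471, 986 and 704 CPM in joint barcodes, against 544, 372, 484 and 278 CPM in the sums. Cxcl2's log2 difference was 0.83 ± 0.15 SE, edgeR adjusted p = 0.013.

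Immediate early and stress genes respond within minutes to stimulation and to tissue dissociation. Of 22 tested, 8 were higher and 0 lower than in the plain sum (median 0.27 on the log2 scale), and 9 and 0 against the weighted sum (median 0.19). Fos, a subunit of the AP-1 transcription factor, had 3300.3, 3121, 4432 and 4716 CPM in joint barcodes, against 2759, 2667, 3619 and 4011 CPM in the sums. Fos's log2 difference was 0.30 ± 0.05 SE, edgeR adjusted p = 0.00833. Klf2, a transcription factor also known from endothelium, had 1414, 988, 1784 and 2130.0 CPM, against 1132, 763, 1318 and 1335 CPM. Klf2's log2 difference was 0.50 ± 0.07 SE, edgeR adjusted p = 0.00365. Zfp36, an mRNA decay factor, differed by 0.32 ± 0.06 SE, edgeR adjusted p = 0.019. All 3 were higher in 4 of 4 libraries.

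Hemoglobin genes were the largest decreases by fold, with few counts in joint barcodes. Hbb-bs had 0, 0, 10 and 5 UMIs there, or 0, 0, 4.93 and 2.81 CPM, against 6.82, 1.64, 211 and 12.7 CPM in the sums, where corn oil 1 alone was high. In that library 1 of 228 single Kupffer and 1 of 167 single stellate cells held at least 10 erythroid marker UMIs. The median was 0 in both classes, so the decrease can rest on few barcodes of the sum. Hba-a1 and Hba-a2, near-identical copies whose UMIs may be split between them, moved the same way, and all 3 erythroid genes tested were lower.

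Hepatocyte genes were lower for 3 of 12, among them Alb, albumin, with 47.4, 144, 48.3 and 88.1 CPM, against 72.4, 199, 221 and 224 CPM (log2 difference -1.20 ± 0.21 SE, edgeR adjusted p = 0.0125). Against the weighted sum Alb was the 1 hepatocyte gene still lower. Of the 34 ligands and receptors listed for exchange between the 2 cell types, 2 were lower and 0 higher than in the plain sum. Hgf, hepatocyte growth factor made by stellate cells, had 221, 219, 107 and 141 CPM, against 271, 245, 225 and 349 CPM. Hgf's log2 difference was -0.70 ± 0.16 SE, edgeR adjusted p = 0.0317. Against the weighted sum it was -0.15 ± 0.10 SE, edgeR adjusted p = 0.585. Tgfbr1, a TGF-beta receptor, had 69.6, 49.1, 65.1 and 51.1 CPM, against 99.4, 109.6, 89.7 and 67.6 CPM. Tgfbr1's log2 difference was -0.49 ± 0.12 SE, edgeR adjusted p = 0.0357. It was also lower than in the weighted sum. By edgeR, 0 of 20 cell cycle, 7 MHC class II, 5 monocyte or 3 conventional dendritic cell genes tested passed, while 2039 of all 11101 genes had an unadjusted p under 0.05.

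Of 16 scar-associated macrophage genes 4 were lower and 0 higher than in the plain sum, and 2, Gpnmb and Spp1, were lower than in the weighted sum. Gpnmb, a lysosomal glycoprotein, had 53.2, 42.5, 3.45 and 4.49 CPM, against 90.8, 133, 5.59 and 23.3 CPM. Gpnmb's log2 difference was -1.11 ± 0.21 SE, edgeR adjusted p = 0.016. Spp1, the matrix protein osteopontin, had 30.5, 0, 26.1 and 21.9 CPM, against 56.6, 65.5, 52.8 and 153 CPM. Spp1's log2 difference was -1.62 ± 0.32 SE, edgeR adjusted p = 0.0181. Cd63 and Ctsk were the other two against the plain sum; against the weighted sum they did not pass, at -0.20 and -0.43 (edgeR adjusted p = 0.428 and 0.495). Against the plain sum, the markers of other cell types that passed were lower: 2 of 7 T and NK cell genes, 1 of 3 B cell, 2 of 3 plasmacytoid dendritic cell, 1 of 4 neutrophil, Sox9 of the cholangiocyte genes, and Notch3 and Itga8 of the smooth muscle genes. Against the weighted sum 1 of these calls remained, the plasmacytoid dendritic cell gene Siglech. Msln, mesothelin, of the mesothelial genes, was higher, above the sum in the corn oil libraries only, with 7.73, 6.54, 43.9 and 59.5 CPM, against 7.78, 8.56, 18 and 25.5 CPM in the sums. Msln's log2 difference was 0.97 ± 0.23 SE, edgeR adjusted p = 0.0403. Against the weighted sum it led the increases with Cpe, Prr15l and Igfbp5, at log2 differences of 1.61, 1.43, 1.31 and 1.26. Without the 36 barcodes Prr15l was at 0.521, 0, 0 and 0.686 CPM in joint barcodes, beside 9.19, 32.7, 17.3 and 52.2 CPM with them. Of 10 heme and iron genes, 1 was higher and 2, both hemoglobins, were lower. Hmox1, heme oxygenase 1, was higher by 0.37 ± 0.07 SE on the log2 scale, edgeR adjusted p = 0.0191, but against the weighted sum it did not pass, at 0.07 ± 0.05 SE, edgeR adjusted p = 0.653.

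The number of genes called depended on single libraries: 80 without corn oil 1, 240 without CCl4 2 and 273 without corn oil 2, and 503 without CCl4 1. Without the mouse as a block none was called by edgeR, while 672 had an unadjusted p under 0.05; the other tools called 355 (DESeq2) and 158 (limma).

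CCl4 joint barcodes were then compared with corn oil joint barcodes, with 2 sums of UMIs in each group. Among macrophage genes, the scavenger receptor gene Marco and the protease gene Mmp12 were much higher in CCl4, while complement, MHC class II and Cd163 transcripts were lower; among stellate genes, contractile and matrix-modifying ones were higher. Of 10202 genes tested, 567 (5.56%) passed in edgeR, 286 (2.80%) higher and 281 (2.75%) lower. The CCl4 and corn oil libraries did not overlap for any gene called in this comparison and given below with its CPM. This follows largely from choosing the genes by the same contrast. It is a description, with no share over all genes tested beside it. Changes in single cells are given beside some of them; whether the response differed was tested against the sum only, in the last comparison. Without CCl4 1, when the CCl4 group was the 14 barcodes of CCl4 2, 145 were called; that lone library is assumed to vary like the corn oil ones. Without the 36 mesothelial or portal fibroblast barcodes 772 were called, 490 of them among the 567.

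Marco (chr1:120474538-120505024), a class A scavenger receptor that binds bacteria and particles, had 4332 and 3968 CPM in CCl4 barcodes, against 425 and 442 CPM in corn oil barcodes. Both CCl4 libraries lay far above both corn oil libraries, with a log2 fold change of 3.16 ± 0.16 SE, edgeR adjusted p = 1.33e-05. Single Kupffer cells had 5769 and 5445 CPM in CCl4, against 928 and 504 CPM in corn oil, a log2 fold change of 2.85 ± 0.26 SE, edgeR adjusted p = 0.00551. Of the other 24 Kupffer genes outside the rule, 9 fell and 0 rose. With Marco, the median log2 fold change of the 25 was -0.56 and 2 were positive. The Kupffer share of the RNA assigned to either cell also differed, at 72.4% and 72.1% in CCl4 and 85.8% and 87% in corn oil, and its part in these falls was not tested. C1qa, C1qb and C1qc, the chains of complement C1q, were among them, by log2 fold changes of -1.05 ± 0.17 SE, edgeR adjusted p = 0.0076; -0.71 ± 0.14 SE, edgeR adjusted p = 0.0173; and -0.82 ± 0.15 SE, edgeR adjusted p = 0.0122. Cd163, the receptor for hemoglobin bound to haptoglobin, had 282 and 134 CPM in CCl4 barcodes, against 670.4 and 802 CPM in corn oil barcodes, without overlap. Cd163's log2 fold change was -1.83 ± 0.28 SE, edgeR adjusted p = 0.00623. Fcna, the lectin ficolin A, had 1090.1 and 952 CPM in CCl4 barcodes, against 1943 and 2037 CPM in corn oil barcodes. Fcna's log2 fold change was -1.06 ± 0.16 SE, edgeR adjusted p = 0.00526. Csf1r, the receptor for the macrophage growth factors CSF1 and IL-34, fell as well, with 1005 and 1164 CPM in CCl4 barcodes, against 1690.4 and 1965 CPM in corn oil barcodes. Csf1r's log2 fold change was -0.86 ± 0.17 SE, edgeR adjusted p = 0.0172.

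Mmp12 (chr9:7344381-7369499), macrophage metalloelastase, had 782 and 811 CPM in CCl4 barcodes, against 10.4 and 1.68 CPM in corn oil barcodes. Its log2 fold change was 6.88 ± 0.41 SE, edgeR adjusted p = 2.99e-05, where single Kupffer cells had 5.31 ± 0.23 SE, edgeR adjusted p = 0.00021. Itgax, the integrin chain CD11c, had 67.2 and 81.8 CPM in CCl4 barcodes, against 4.44 and 1.12 CPM in corn oil barcodes, without overlap (log2 fold change 4.52 ± 0.43 SE, edgeR adjusted p = 0.000855), beside a log2 fold change of 2.37 in single Kupffer cells. Corn oil counts were 9 and 2 UMIs, so the size of that change is imprecise. Of 16 genes of scar-associated macrophages, 6 rose and 1 fell: Trem2, Gpnmb, Cd63, Lpl, Mmp12 and Itgax rose and Apoe, apolipoprotein E, fell. Lpl, lipoprotein lipase, had 2918 and 2453 CPM in CCl4 barcodes, against 875 and 920.2 CPM in corn oil barcodes. Lpl's log2 fold change was 1.48 ± 0.16 SE, edgeR adjusted p = 0.00137. Apoe had 4248 and 3448 CPM in CCl4 barcodes, against 9124 and 8057 CPM in corn oil barcodes. Apoe's log2 fold change was -1.25 ± 0.15 SE, edgeR adjusted p = 0.00206. Gpnmb, a lysosomal glycoprotein, had 53.2 and 42.5 CPM in CCl4 barcodes, against 3.45 and 4.49 CPM in corn oil barcodes. Gpnmb's log2 fold change was 3.54 ± 0.38 SE, edgeR adjusted p = 0.0011.

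Mmp13, a collagenase, had 102 and 114 CPM in CCl4 barcodes, against 0.493 and 5.61 CPM in corn oil barcodes, with 1 and 10 UMIs in corn oil. Mmp13's log2 fold change was 5.05 ± 0.48 SE, edgeR adjusted p = 0.000855. Chil3, a chitinase-like protein of monocytes and alternatively activated macrophages, had 48 and 6 UMIs in CCl4 joint barcodes, against 0 and 0 in corn oil joint barcodes. Per UMI of the joint sums it was at least 28.9-fold higher in CCl4, computed against 3 counts over the corn oil group, and edgeR gave an adjusted p of 0.00221. Selp, the adhesion protein P-selectin, had 17.9 and 81.8 CPM in CCl4 barcodes, against 2.46 and 0.561 CPM in corn oil barcodes. Selp's log2 fold change was 4.41 ± 0.86 SE, edgeR adjusted p = 0.0176. All 7 MHC class II presentation genes tested fell, with a median log2 fold change of -1.62. Cd74, the invariant chain, had 467 and 644 CPM in CCl4 barcodes, against 876 and 1984 CPM in corn oil barcodes. Cd74's log2 fold change was -1.50 ± 0.33 SE, edgeR adjusted p = 0.0287. The groups did not overlap, but corn oil 2 was far above corn oil 1, as also for H2-Aa, with 425 and 478 CPM in CCl4 barcodes, against 700.0 and 1877 CPM in corn oil barcodes (log2 fold change -1.63 ± 0.37 SE, edgeR adjusted p = 0.0305). Single Kupffer cells had log2 fold changes of -1.92 for Cd74 and -2.09 for H2-Aa. Of 14 interferon response genes, 3 rose and 0 fell. Isg15, an antiviral ubiquitin-like protein, had 122 and 81.8 CPM in CCl4 barcodes, against 18.2 and 23 CPM in corn oil barcodes. Isg15's log2 fold change was 2.31 ± 0.27 SE, edgeR adjusted p = 0.00162. Of 22 immediate early and stress genes, 0 rose and 6 fell, Fos with a log2 fold change of -0.61 ± 0.14 SE, edgeR adjusted p = 0.0353.

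On the stellate side, 12 of 17 contractile and activation genes rose and 0 fell, with a median log2 fold change of 2.03, where all genes tested had -0.00229. Setting Ankrd1, with 0 corn oil UMIs, at its lower bound left that median at 2.03. Of the RNA assigned to either cell, a median of 72.4% and 72.1% was Kupffer RNA in CCl4 and 85.8% and 87% in corn oil. Stellate RNA thus made up more of the CCl4 barcodes, and its part in the rises of this paragraph was not tested. Acta2 (chr19:34241090-34255590) had 131 and 55.6 CPM in CCl4 barcodes, against 6.9 and 2.81 CPM in corn oil barcodes, without overlap. Acta2's log2 fold change was 4.31 ± 0.45 SE, edgeR adjusted p = 0.00104. Tagln, the actin-binding protein transgelin, had 354 and 98.1 CPM in CCl4 barcodes, against 17.7 and 14 CPM in corn oil barcodes. Tagln's log2 fold change was 3.87 ± 0.48 SE, edgeR adjusted p = 0.00206. Tpm1, tropomyosin, had 387 and 252 CPM in CCl4 barcodes, against 74.9 and 75.2 CPM in corn oil barcodes. Tpm1's log2 fold change was 2.03 ± 0.24 SE, edgeR adjusted p = 0.00162. In single stellate cells the change was 3.06 ± 0.28 SE, edgeR adjusted p = 0.0197, for Tagln, and 3.43 ± 0.69 SE, edgeR adjusted p = 0.0723, for Acta2, which did not pass there. Tnc, the matrix glycoprotein tenascin C, had 92.3 and 22.9 CPM in CCl4 barcodes, against 0.493 and 1.68 CPM in corn oil barcodes, with 1 and 3 UMIs in corn oil. Tnc's log2 fold change was 5.86 ± 0.69 SE, edgeR adjusted p = 0.0017. Ch25h, which makes 25-hydroxycholesterol, had 23.2 and 32.7 CPM in CCl4 barcodes, against 0.986 and 1.68 CPM in corn oil barcodes, with 2 and 3 UMIs in corn oil. Ch25h's log2 fold change was 4.13 ± 0.56 SE, edgeR adjusted p = 0.00302. Of 25 stellate genes outside the rule, 3 rose and 2 fell. Pdgfrb, the PDGF receptor of stellate cells, had 71.1 and 42.5 CPM in CCl4 barcodes, against 12.3 and 22.4 CPM in corn oil barcodes. Pdgfrb's log2 fold change was 1.76 ± 0.35 SE, edgeR adjusted p = 0.0199. Steap4, a metalloreductase, had 574 and 458 CPM in CCl4 barcodes, against 232 and 199.8 CPM in corn oil barcodes. Steap4's log2 fold change was 1.18 ± 0.19 SE, edgeR adjusted p = 0.00762. Angptl6, an angiopoietin-like secreted protein, had 35.8 and 32.7 CPM in CCl4 barcodes, against 110.4 and 129 CPM in corn oil barcodes. Angptl6's log2 fold change was -1.86 ± 0.24 SE, edgeR adjusted p = 0.00216. Angptl6 also fell in single stellate cells, with a log2 fold change of -2.82 ± 0.36 SE, edgeR adjusted p = 0.0264.

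Mesothelial RNA moved with this comparison. Of 5 portal fibroblast genes tested 1, Clec3b, fell and 0 rose, while all 5 mesothelial genes fell (median log2 fold change -2.85), and their summed level was 63.3 and 65.4 CPM in CCl4 joint barcodes, against 368.7 and 420.3 CPM in corn oil joint barcodes. Upk3b, a uroplakin of mesothelium, had 8.22 and 9.81 CPM in CCl4 barcodes, against 94.7 and 86.4 CPM in corn oil barcodes. Upk3b's log2 fold change was -3.49 ± 0.29 SE, edgeR adjusted p = 0.000307. Prg4, the lubricating proteoglycan lubricin, had 42.5 and 9.81 CPM in CCl4 barcodes, against 225 and 452 CPM in corn oil barcodes. Prg4's log2 fold change was -3.39 ± 0.44 SE, edgeR adjusted p = 0.00245. Muc16, Pkhd1l1 and Clec3b were also among the 8 largest decreases and, like Upk3b and Prg4, no longer had enough counts to be tested without the 36 barcodes. Gbp2b (an interferon-inducible GTPase, log2 fold change -3.79), Pianp (-3.64) and Car3, a carbonic anhydrase with 0 and 2 UMIs in CCl4 barcodes, against 46 and 50 UMIs in corn oil barcodes, were the other 3 and were called with or without them. Several matrix genes changed more once these barcodes were left out. Timp1, an inhibitor of metalloproteinases, then had 55.8 and 33.6 CPM in CCl4 barcodes, against 1.21 and 0.686 CPM in corn oil barcodes, edgeR adjusted p = 4.97e-05. With all joint barcodes Timp1 had 54.1 and 29.4 CPM in CCl4 barcodes, against 16.3 and 16.3 CPM in corn oil barcodes (log2 fold change 1.44 ± 0.33 SE, edgeR adjusted p = 0.0314). Serpina3n, a secreted protease inhibitor, then had 104 and 153 CPM in CCl4 barcodes, against 1.82 and 0.686 CPM in corn oil barcodes, a log2 fold change of 6.34 ± 0.44 SE, edgeR adjusted p = 8.27e-07. With all joint barcodes Serpina3n had 117 and 147 CPM in CCl4 barcodes, against 26.1 and 48.8 CPM in corn oil barcodes (log2 fold change 1.68 ± 0.30 SE, edgeR adjusted p = 0.0115). Col1a1 had 348 and 291 CPM in CCl4 barcodes, against 263 and 53.3 CPM in corn oil barcodes, which did not pass, at 0.94 ± 0.50 SE, edgeR adjusted p = 0.332. Without these barcodes it had 357 and 321 CPM in CCl4 barcodes, against 41.9 and 63.1 CPM in corn oil barcodes, a log2 fold change of 2.58 ± 0.24 SE, edgeR adjusted p = 2.25e-05. Without these barcodes 14 of 16 contractile and activation genes rose and 0 fell. Of 25 stellate genes 6 rose, Col1a1, Col1a2 and Col3a1 among them, and 4 fell (Ecm1, Hand2, Angptl6 and Ntm). Of all 9584 genes tested in that setting, 415 rose and 357 fell.

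Among the 32 ligands and receptors tested, 3 rose and 2 fell. Ccl2, the monocyte chemoattractant, had 231 and 199.5 CPM in CCl4 barcodes, against 109 and 92 CPM in corn oil barcodes. Ccl2's log2 fold change was 1.02 ± 0.20 SE, edgeR adjusted p = 0.0175. Itgam, the integrin chain CD11b, had 129 and 186 CPM in CCl4 barcodes, against 68.5 and 64.5 CPM in corn oil barcodes. Itgam's log2 fold change was 1.07 ± 0.23 SE, edgeR adjusted p = 0.0232. Il1r1, the interleukin 1 receptor, had 75.4 and 78.5 CPM in CCl4 barcodes, against 35.5 and 19.1 CPM in corn oil barcodes. Il1r1's log2 fold change was 1.38 ± 0.29 SE, edgeR adjusted p = 0.0219. Gas6, a ligand of the TAM receptors that take part in clearing dead cells, had 57.5 and 101 CPM in CCl4 barcodes, against 132 and 137 CPM in corn oil barcodes. Gas6's log2 fold change was -1.02 ± 0.26 SE, edgeR adjusted p = 0.0477. Without the 36 barcodes its edgeR adjusted p was 0.0728. Lyve1 had 555 and 631 CPM in CCl4 barcodes, against 164 and 129.6 CPM in corn oil barcodes. Lyve1's log2 fold change was 1.91 ± 0.19 SE, edgeR adjusted p = 0.000858. In single Kupffer cells the Lyve1 log2 fold change was 1.97. Dnase1l3 had 432 and 412 CPM in CCl4 barcodes, against 835 and 704 CPM in corn oil barcodes. Dnase1l3's log2 fold change was -0.96 ± 0.17 SE, edgeR adjusted p = 0.0115. These were the 2 of 15 endothelial genes called. Of 15 cell cycle genes 2 rose (Mcm3 and Mcm5, of the replication helicase) and 2 fell (Stmn1 and Prc1). Krt7 and Krt19, keratins of bile duct and mesothelium, fell and were at 0 in all 4 libraries without the 36 barcodes. Trf, the hepatocyte gene of transferrin, fell (-1.20 on the log2 scale), as did the B cell gene Cd79b, with 1 and 0 UMIs in CCl4 barcodes, against 13 and 22 UMIs in corn oil barcodes. Notch3, a receptor of smooth muscle and pericytes, and Fth1, the ferritin heavy chain, rose by log2 fold changes of 2.06 and 0.60.

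**Figure D5:**
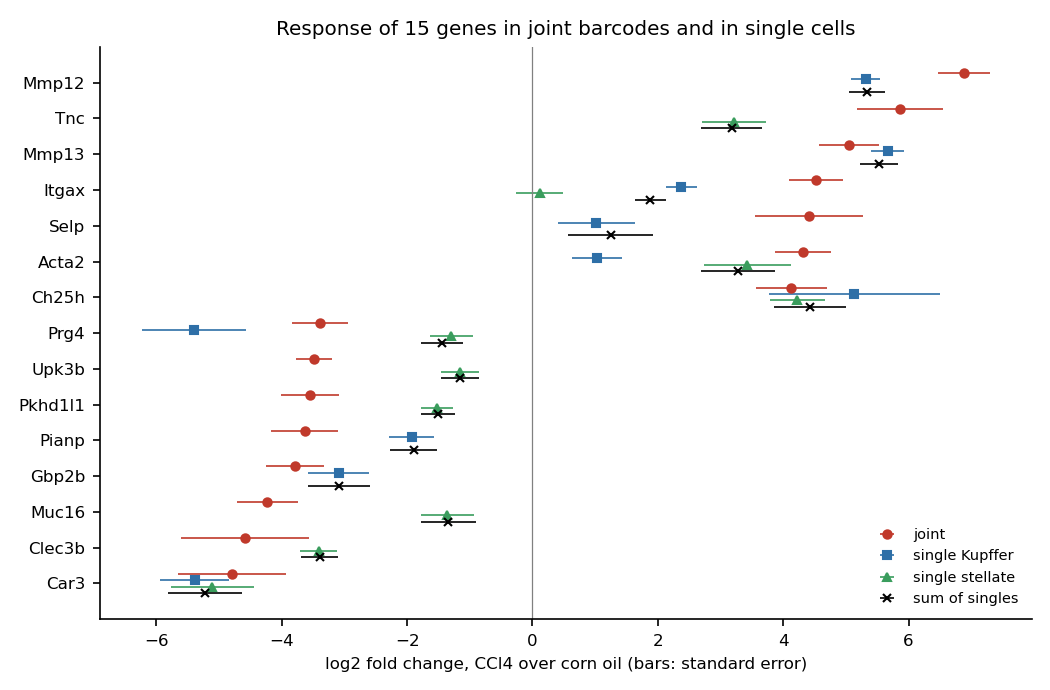
Log2 fold change of CCl4 over corn oil with its standard error for the 15 genes with the largest changes in joint barcodes that had UMIs in both groups, beside the same change in single Kupffer cells, single stellate cells and their sum; a missing marker means that the gene was not tested there. Mmp12, at 6.88, leads the increases, and the mesothelial gene Upk3b stands at -3.49 in joint barcodes; differences between the classes are not tested here.

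Whether joint barcodes responded to CCl4 otherwise than the sum of single cells was tested as an interaction, with the mouse as a block. Of 11101 genes, 18 (0.162%) passed in edgeR, 13 (0.117%) with a higher and 5 (0.0450%) with a lower response in joint barcodes. The 8 largest differences in the first group, among genes with at least 20 CPM, were those of Tmem56, Rgs5, Pde3a, Colec10, Sod3, Cxcl12, Abcc9 and Vipr1. Sod3 (chr5:52363791-52371418), extracellular superoxide dismutase, had 1546 and 958 CPM in CCl4 barcodes, against 526 and 662 CPM in corn oil barcodes; the sums had 1269.7 and 839 CPM in CCl4, against 961 and 1566 CPM in corn oil. It was thus higher than the sum in CCl4 and lower than it in corn oil, a difference in log2 response of 1.26 ± 0.14 SE, edgeR adjusted p = 0.0135. Cxcl12, the chemokine of the receptor CXCR4, had 836 and 674 CPM in CCl4 barcodes, against 597 and 942 CPM in corn oil barcodes, and the sums 722 and 784 CPM in CCl4, against 1386 and 2245 CPM in corn oil. Cxcl12's difference in log2 response was 1.22 ± 0.14 SE, edgeR adjusted p = 0.0135. Rgs5, a regulator of G protein signalling in pericytes, had 764 and 667 CPM in CCl4 barcodes, against 264 and 442 CPM in corn oil barcodes, and the sums 585 and 406 CPM in CCl4, against 459 and 849.8 CPM in corn oil. Rgs5's difference in log2 response was 1.35 ± 0.14 SE, edgeR adjusted p = 0.0135. Lrat had 337 and 471 CPM in CCl4 barcodes, against 128 and 326 CPM in corn oil barcodes, and the sums 355 and 419 CPM in CCl4, against 244 and 736 CPM in corn oil. Lrat's difference in log2 response was 1.05 ± 0.15 SE, edgeR adjusted p = 0.0386. All 25 stellate genes outside the rule had a positive difference, 5 of them called (Lrat, Colec10, Col14a1, Prelp and Sod3), with a median of 0.86, where all genes tested had -0.03. The stellate part of a joint barcode was 0.884 and 0.359 equivalents in CCl4 and 0.288 and 0.348 in corn oil (exact permutation p = 0.333), so that CCl4 1 alone stood apart and CCl4 2 was close to corn oil 2. Against the weighted sum, which takes up that part, the differences were 0.74 ± 0.13 SE, edgeR adjusted p = 0.00514, for Sod3; 0.72 ± 0.12 SE, edgeR adjusted p = 0.0048, for Cxcl12; 0.85 ± 0.15 SE, edgeR adjusted p = 0.0052, for Rgs5; and 0.54 ± 0.16 SE, edgeR adjusted p = 0.188, for Lrat. Sod3 and Lrat are among the genes whose UMIs set the weights. The test against the weighted sum called 46 genes, 11 higher and 35 lower, with 10 of the 18 among them.

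Prg4, Ildr2, Alcam and Cxcl2 had a lower response in joint barcodes than in the sum. Alcam, an adhesion protein, had 33.4 and 52.3 CPM in CCl4 barcodes, against 84.8 and 90.3 CPM in corn oil barcodes, and the sums 89.2 and 176 CPM in CCl4, against 89.7 and 116 CPM in corn oil. Alcam's difference in log2 response was -1.33 ± 0.21 SE, edgeR adjusted p = 0.0474. Without the mesothelial and portal fibroblast barcodes the difference was 0.44 ± 0.43 SE, edgeR adjusted p = 0.96, and for Ildr2 0.71 ± 1.02 SE, edgeR adjusted p = 0.978, beside -1.81 ± 0.27 SE, edgeR adjusted p = 0.0422, with them. Cxcl2 had 700.0 and 471 CPM in CCl4 barcodes, against 986 and 704 CPM in corn oil barcodes, and the sums 544 and 372 CPM in CCl4, against 484 and 278 CPM in corn oil. Cxcl2's difference in log2 response was -0.87 ± 0.13 SE, edgeR adjusted p = 0.0422. Without those barcodes it was -0.87 ± 0.14 SE, edgeR adjusted p = 0.00203. The count of 18 moved with single libraries, to 66 without CCl4 2, 91 without corn oil 1, 46 without corn oil 2 and 22 without CCl4 1, and to 72 without the mesothelial and portal fibroblast barcodes. By limma, or by edgeR without the mouse block, 0 genes were called, while 599 and 310 had an unadjusted p under 0.05. By edgeR, 0 of 25 Kupffer genes, 18 contractile genes and 16 scar-associated genes were called, while 672 of all genes tested had an unadjusted p under 0.05; a difference in their response was not shown at this size.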

How the data were processed

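The deposited tables hold UMI counts per gene and cell barcode for 4 libraries, which the authors made with version 1.9.1 of the BD Rhapsody WTA pipeline (genome GRCm38, annotation GENCODE vM19), per the file headers. The values are whole, unnormalized counts that the pipeline had corrected for errors in the identifiers (RSEC). The header of CCl4 1 carries another analysis date than the other 3.

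Barcodes with at least 200 genes and at most 25% mitochondrial UMIs were kept. The joint rule, the single classes and the gene lists were chosen with earlier results of these data known. No doublet caller was run, because barcodes with both marker sets are the subject. UMIs were summed per library and class. CPM is UMIs of a gene per 1000000 UMIs of the summed barcodes; a sum adds 1 mean single Kupffer and 1 mean single stellate cell. The 12 genes of the rule counted in library sizes and were not tested.

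Genes passing filterByExpr were tested with edgeR 4.0.16 (R 4.3.3; TMM scaling, quasi-likelihood test, Benjamini-Hochberg over all genes tested, threshold 0.05), with the mouse as a block where joint and summed values of a library were compared. limma 3.58.1 and DESeq2 1.42.0 were alternatives. Shares and pair rates were compared by exact two-sided permutation tests over mice (scipy 1.17.1). Named genes were the transcription factors read beside the label and up to 4 called genes of highest CPM per list. The 8 largest changes each way among called genes with at least 20 CPM in 1 group were named too. Other list members given with values (among them C1qa, Gpnmb, Il1r1, Timp1 and Col1a1) were chosen after their values were seen. The fits were tested on simulated data. Coordinates are 1-based, GRCm38, from GENCODE vM21.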

Additional observations from a re-analysis of the deposited data

Results flagged for a closer look

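The response to CCl4 differed between joint barcodes and the sum of single cells for 18 genes in edgeR's test of the difference itself. On the log2 scale the response in joint barcodes exceeded that of the sum by 1.37 for Tmem56, 1.35 for Rgs5, 1.32 for Pde3a, 1.28 for Colec10, 1.26 for Sod3, 1.22 for Cxcl12, 1.22 for Abcc9 and 1.08 for Vipr1. It was below that of the sum for Prg4 (-1.85), Ildr2 (-1.81), Alcam (-1.33) and Cxcl2 (-0.87). Among the 4 libraries, the median stellate equivalents of CCl4 1, at 0.884, stood apart from the other 3, with a gap of 0.880 of the whole range, over the 95% critical value of Dixon's test. Chance flags about 1 in 20 such groups.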

How the results depend on the processing

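The exact permutation tests over 2 mice against 2 cannot pass a threshold, so their settings are described by values. The log2 ratio of the joint share, CCl4 over corn oil, was -0.999, and -2.51 to -0.277 with each library left out; the low end was without CCl4 1. The log2 ratio of the pair rate was -3.28, and -3.83 to -2.88 with each library left out. It was -4.24 with the endothelial limit lifted from the joint count only. The single classes kept the limit there, so this value is not the pair rate without it. Both settings were chosen after seeing the data. The excess of genes at fixed depth, 94.6 on average, was 62.8 with at most 15% mitochondrial UMIs, 57.8 at 3000 UMIs and 75.6 at 8000 UMIs. Joint against sum called 547 genes, 1065 with no filter on low counts, 355 with DESeq2, 158 with limma, 155 against the weighted sum, 0 without the mouse block (672 at an unadjusted p under 0.05 in edgeR) and 80 to 503 with a library left out. CCl4 against corn oil in joint barcodes called 567 genes, 1084 with no filter, 275 with DESeq2, 231 with limma and 145 to 814 with a library left out. The difference of responses called 18 genes, 33 with DESeq2 size factors, 173 with no filter, 11 with DESeq2, 46 against the weighted sum, 72 without mesothelial or portal fibroblast barcodes (chosen after seeing the data), 22 to 91 with a library left out, and 0 with limma (599 at an unadjusted p under 0.05) or without the mouse block in edgeR (310). Ildr2 (0.71) and Alcam (0.44) changed sign without the mesothelial or portal fibroblast barcodes; the cause was not tested. Of values for named genes across settings, 262, 160 and 89 in the 3 comparisons kept their direction and side of the threshold, and 54, 9 and 41 kept their direction but no longer passed.

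Libraries of the 2 groups share replicate numbers, and with the replicate block 674 genes were called in joint barcodes, 550 of them among the 567. Same-numbered libraries had a correlation of deviations of 0.0197 over 10214 genes. With 2 libraries per group the deviations mirror each other, so both pairs give this same value. It cannot decide whether same-numbered libraries share more than a number. With 14 joint barcodes in CCl4 2 and 2 mice per group, genes with few UMIs could not be compared precisely.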
